A study of Mus musculus with 6 samples.

Results

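RNA of 10 tetraspanin genes, namely Cd9, Cd37, Cd53, Cd63, Cd81, Cd82, Cd151, Tspan3, Tspan4 and Tspan7, was compared between bone marrow monocytes (BMDM) and brainstem microglia (BSM) of the mouse. The genes were listed by symbol, with earlier results of these data known. All 10 were found among the 35237 genes of a table of FPKM (fragments scaled by exon length and by the number of mapped reads, from Cufflinks) and among the 36536 entries of a second table from ALEXA-Seq. A further 21 genes of the family were also read out. The 6 RNA-Seq libraries were 3 from BMDM, sorted as CD11b+ CD45high CD115+ Ly6G- cells, and 3 from BSM, sorted as CD11b+ CD45low CD115low Ly6G- cells. Each came from cells pooled from a set of C57BL/6 mice at 6 weeks of age, without a treatment or a transgene being stated, and the RNA was amplified before sequencing. By the labels, replicate 1 of each cell type was male and replicates 2 and 3 were female. The study's list of RNA quality gives the same sexes, whereas the text of its Results gives male mice. In that list the RNA integrity number of BSM replicate 1 was far below that of every other library.

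Tetraspanins are small proteins that cross the membrane 4 times and carry short tails in the cytoplasm and a larger outer loop folded by disulphide bonds. They bind each other and a set of partners, among them integrins, immunoglobulin superfamily proteins and metalloproteases, in patches of membrane often called the tetraspanin web. Some members, CD9 and CD81 among them, lie largely at the cell surface and limit fusion of macrophages, whereas CD63 lies mainly in late endosomes and lysosomes. For unstimulated microglia, however, the study places CD81 inside the cell membrane. By flow cytometry it reports CD81 in BSM and not in BMDM. It also reports Cd81 RNA as higher in BSM by qPCR of separately prepared samples. CD9, CD63 and CD81 are widely used as markers of exosomes, while CD37 and CD53 are largely restricted to leukocytes.

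The promoters of the 4 members that were higher in BSM by test, and of the leukocyte members Cd37 and Cd53, are printed so that the letters around their starts can be set beside the levels. Each run holds 250 bases before and 50 bases after the RefSeq start, on GRCm38.p6 and read 5′ to 3′ on the strand of the gene. Capitals mark GAGGAA, the core of many sites bound by the myeloid factor PU.1, and GGGCGG, the GC box bound by Sp1, each read on both strands, so that TTCCTC and CCGCCC are the same motifs on the other strand. No marked hits overlap.
Cd81 promoter, chr7:143052500-143052799, plus strand: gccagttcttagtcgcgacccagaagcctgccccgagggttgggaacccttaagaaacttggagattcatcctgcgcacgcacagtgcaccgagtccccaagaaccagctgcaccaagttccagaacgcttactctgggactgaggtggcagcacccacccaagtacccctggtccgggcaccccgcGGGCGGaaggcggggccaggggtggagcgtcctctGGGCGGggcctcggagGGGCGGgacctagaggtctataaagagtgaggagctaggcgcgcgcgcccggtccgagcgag
Tspan7 promoter, chrX:10484866-10485165, plus strand: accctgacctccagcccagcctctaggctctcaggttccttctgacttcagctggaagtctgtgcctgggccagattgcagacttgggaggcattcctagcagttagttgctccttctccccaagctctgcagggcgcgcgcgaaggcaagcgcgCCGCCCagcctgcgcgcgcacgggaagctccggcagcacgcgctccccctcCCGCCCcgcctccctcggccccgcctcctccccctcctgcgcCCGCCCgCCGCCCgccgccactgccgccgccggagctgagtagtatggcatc
Cd9 promoter, chr6:125494711-125495010, minus strand: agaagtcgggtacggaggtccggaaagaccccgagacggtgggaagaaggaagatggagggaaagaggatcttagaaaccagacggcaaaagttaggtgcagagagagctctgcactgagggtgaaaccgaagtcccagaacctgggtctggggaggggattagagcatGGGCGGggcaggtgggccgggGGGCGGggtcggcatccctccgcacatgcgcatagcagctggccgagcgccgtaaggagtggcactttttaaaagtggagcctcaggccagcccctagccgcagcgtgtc
Tspan3 promoter, chr9:56161021-56161320, minus strand: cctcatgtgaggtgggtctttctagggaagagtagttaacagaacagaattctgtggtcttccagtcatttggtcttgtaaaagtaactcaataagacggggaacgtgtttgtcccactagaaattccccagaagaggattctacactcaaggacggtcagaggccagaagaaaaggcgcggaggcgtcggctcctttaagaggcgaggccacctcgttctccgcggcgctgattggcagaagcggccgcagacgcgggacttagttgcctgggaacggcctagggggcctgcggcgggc
Cd37 promoter, chr7:45238790-45239089, minus strand: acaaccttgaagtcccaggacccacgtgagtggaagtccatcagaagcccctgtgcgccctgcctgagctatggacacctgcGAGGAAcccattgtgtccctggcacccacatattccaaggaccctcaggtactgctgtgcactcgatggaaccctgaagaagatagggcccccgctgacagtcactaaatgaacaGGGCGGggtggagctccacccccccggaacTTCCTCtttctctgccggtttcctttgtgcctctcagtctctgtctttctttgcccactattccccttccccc
Cd53 promoter, chr3:106790100-106790399, minus strand: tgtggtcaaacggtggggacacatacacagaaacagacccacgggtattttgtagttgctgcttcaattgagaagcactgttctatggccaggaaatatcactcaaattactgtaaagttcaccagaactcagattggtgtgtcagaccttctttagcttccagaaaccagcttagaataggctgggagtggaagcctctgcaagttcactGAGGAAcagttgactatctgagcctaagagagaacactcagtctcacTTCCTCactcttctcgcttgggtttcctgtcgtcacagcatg

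RefSeq gave 15 promoters for the 10 members, since Cd82 had 4 starts and Cd151 and Tspan4 had 2 each. GAGGAA was found in 4 of the 15, 1 each from Cd37, Cd53, Cd63 and Cd82, and in 28.3% of the 32851 promoters of the table. In comparison, GGGCGG was found in 8 of the 15, from 7 members, and in 35.7% of all promoters. The Cd81 promoter held 3 GC boxes, that of Tspan7 held 4 and that of Cd9 held 2, while the Tspan3 promoter held neither motif. Conversely, the Cd53 promoter held GAGGAA at 2 places and no GC box, and its GC content was 46.3% against 65.7% for Cd81 and 70.3% for Tspan7 (median of all promoters, 52.7%). Cd37 held both motifs, GAGGAA at 2 places and GGGCGG at 1. TATAAA, the TATA box, was present in the Cd81 promoter alone of the 15 (13.6% of all promoters), and CACGTG, an E-box, in those of Cd37 and Tspan4 (7.2% of all). These matches describe letters and do not show that a factor was bound.

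The libraries of each sort carried the markers of their label. The microglia marker P2ry12 was at 129.6, 202.6 and 209.0 FPKM in BSM and at 0.287, 0.0311 and 0.268 FPKM in BMDM, and Tmem119 at 23.7, 13.4 and 11.9 FPKM in BSM and at 0.0349, 0.0910 and 0.0232 FPKM in BMDM. The summed FPKM of 7 monocyte genes, such as Ccr2, was 801.7 to 944.5 in BMDM and 0.642 to 176.6 in BSM, where nearly all of it was Itgam (CD11b), a sort marker listed at 0 FPKM in BSM replicate 2 but at an ALEXA-Seq value of 2434.9 in the same library. An FPKM of 0 was therefore not read as absence. The FPKM of all genes summed to between 163198.7 and 194184.2 in the BMDM libraries but to between 68287.8 and 75021.4 in the BSM libraries. With the FPKM as deposited, the median log2 difference between BMDM and BSM (BMDM minus BSM) of the 6364 genes tested was 0.81, so a gene with no difference in FPKM lay below most genes. The same median was 0.02 with quantile normalization, 0.14 with upper quartile scaling and -0.23 with every library scaled to the same sum. Results are given as deposited, and the other scalings are given for the members wherever they change a call or a direction and for genes outside the list where named.

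To ask which tetraspanins distinguished the 2 cell types, FPKM were tested with limma on log2(FPKM + 1) over all genes that reached an FPKM of 3 in at least 1 library. Of the 10 members, 9 reached this minimum and Cd151 did not. Cd81, Cd9, Tspan7 and Tspan3 were higher in BSM at an adjusted p-value under 0.05, none was higher in BMDM, and 5 were not called. No member was higher in BMDM at an unadjusted limma p under 0.05 either, nor by ALEXA-Seq at the adjusted threshold. Among all 6364 genes tested, 9.22% were called higher in BSM and 45.3% higher in BMDM. The 4 called members were also those of the 9 whose BMDM and BSM values did not overlap, a pattern that 11.6% of tested genes had in the direction of BSM. The median log2 difference of the 9 members was -1.03, beside 0.81 for all genes tested. By ALEXA-Seq, 8 members were among the 6364 genes tested and the same 4 were called higher in BSM, a direction called for 10.9% of those genes. With quantile normalization of the FPKM, Cd37 and Cd63 were called in addition, while the share of all genes called higher in BSM was 19.3%. In bulk RNA, fewer cells that express a gene and less RNA per cell cannot be told apart.

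**Figure D1:**
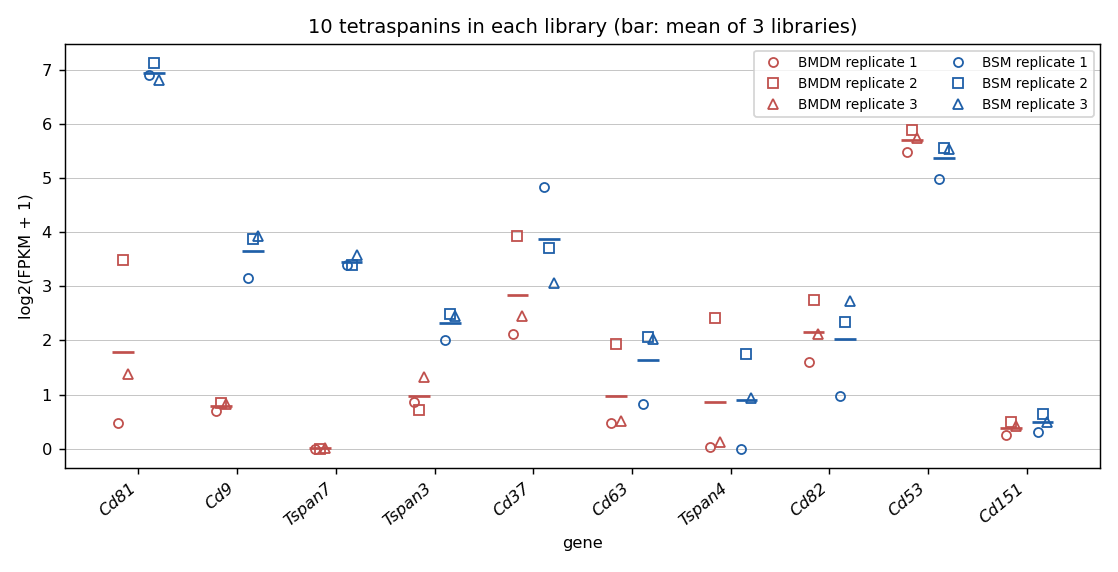
Levels of the 10 tetraspanins on the log2(FPKM + 1) scale (vertical axis) for each gene (horizontal axis), with a symbol for each library, red for BMDM and blue for BSM, and a bar at the mean of the 3 libraries. The groups lie apart for Cd81, Cd9, Tspan7 and Tspan3 and overlap for the other 6, and BMDM replicate 2 (red square) lies above the other BMDM libraries for Cd81, Cd37, Cd63 and Tspan4.

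Cd81 (chr7:150238644-150253839, mm9), whose protein serves widely as an exosome marker, had the highest FPKM of the members in BSM. Its FPKM was 118.9, 138.1 and 111.6 in BSM replicates 1 to 3 and 0.393, 10.2 and 1.61 in BMDM replicates 1 to 3. All BSM values lay above all BMDM values, but BMDM replicate 2 lay far above the other BMDM libraries. Mean FPKM was 122.9 ± 13.7 (SD, n = 3) in BSM and 4.06 ± 5.32 (SD, n = 3) in BMDM, a ratio of 30.3. The log2 difference was -5.17 (SE 0.67, 95% interval -6.72 to -3.61, limma adjusted p = 0.000575). Because a single library set the BMDM mean, the ratio was 122.7 without BMDM replicate 2, and the log2 difference was then -6.02. ALEXA-Seq values were 1229.3, 1480.5 and 1125.0 in BSM and 8.06, 87.0 and 14.7 in BMDM, with a log2 difference of -5.78 (SE 0.78, limma adjusted p = 0.00124).

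Cd9 (chr6:125410284-125444809), a surface tetraspanin of platelets, macrophages and many other cells, had an FPKM of 7.86, 13.7 and 14.3 in BSM and of 0.620, 0.796 and 0.783 in BMDM. The lowest BSM library, replicate 1, was still above every BMDM library, and the BMDM libraries were close to each other. The BSM mean of 12 ± 3.56 (SD, n = 3) was 16.3 times the BMDM mean of 0.733 ± 0.0983 (SD, n = 3), or 7.47 times when 1 was added to each FPKM first. The log2 difference was -2.86 (SE 0.28, limma adjusted p = 0.000140). In contrast to Cd81, no single library moved its log2 difference far, as leaving out each in turn gave -3.11 to -2.72. A stretch of 17.8% of its longest transcript matched a transcript of Gm26728.

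Tspan7 (chrX:10062284-10173731), whose protein is known from neurons, where it takes part in spine maturation, was nearly absent from the BMDM table. It was listed at 0, 0 and 0.0155 FPKM in BMDM and at 9.52, 9.57 and 10.9 FPKM in BSM. The BSM libraries differed little among themselves, with a mean of 10.0 FPKM (SD 0.796, n = 3), and the log2 difference was -3.45 (SE 0.23, limma adjusted p = 2.26e-05). No ratio is given, since BMDM libraries were listed at 0. The size of the log2 difference rested on the pseudocount of 1, as it was -6.59 with a pseudocount of 0.1, against -5.90 for Cd81. By ALEXA-Seq, where no BMDM library was at 0, Tspan7 was 0.259, 0.207 and 0.482 in BMDM and 87.6, 100.7 and 79.5 in BSM. The log2 difference there was -6.10 (SE 0.42, limma adjusted p = 9.82e-05). Neuron markers, of which 7 of 9 were in the table, summed to at most 0.328 FPKM in a BSM library. Astrocyte markers summed to 5.42 to 9.54 FPKM in BSM, nearly all of it Slc1a3 with Gfap at 0, and to 0.259 to 0.397 FPKM in BMDM, and their part in the Tspan7 difference was not tested.

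Tspan3 (chr9:55983692-56008847), a widely expressed member, differed least of the 4. Its FPKM was 3.04, 4.64 and 4.48 in BSM and 0.830, 0.639 and 1.49 in BMDM. The groups did not overlap, and the ratio of the means was 4.11. On the log2(FPKM + 1) scale the difference was -1.35 (SE 0.28, 95% interval -2.01 to -0.70, limma adjusted p = 0.00527), and -2.31 (SE 0.40, limma adjusted p = 0.00373) by ALEXA-Seq. The pseudocount of 1 shrinks differences at these low FPKM.

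Cd53 (chr3:106562852-106592970), a pan-leukocyte tetraspanin, had the highest FPKM of the members in BMDM. It measured 43.9, 58.4 and 52.5 FPKM in BMDM and 30.7, 46.3 and 45.4 FPKM in BSM. BSM replicate 1 was the lowest library, while the other BSM libraries lay within the range of BMDM. The log2 difference of 0.35 (SE 0.25, 95% interval -0.24 to 0.93, limma adjusted p = 0.270) was not called and turned to -0.44, -0.49 and -0.95 with quantile normalization, upper quartile scaling and scaling to the same sum, with adjusted p = 0.195, 0.126 and 0.0133 by limma. A direction for Cd53 therefore rested on the scaling. ALEXA-Seq values as deposited gave 0.14 (SE 0.21, limma adjusted p = 0.614).

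Shares within a library do not depend on how libraries are scaled to each other. Cd53 made up 84.9%, 59.9% and 80.7% of the summed FPKM of the 10 members in BMDM and 15.4%, 19.7% and 22.2% in BSM. Conversely, Cd81 made up 0.761%, 10.4% and 2.47% in BMDM and 59.5%, 58.9% and 54.7% in BSM. The ratio of Cd81 to Cd53 FPKM was accordingly 0.00896, 0.174 and 0.0307 in BMDM and 3.87, 2.99 and 2.46 in BSM, so the order of these 2 genes was opposite in all 3 libraries of each cell type. The same held by ALEXA-Seq, where Cd53 was 58.7% to 83.9% of the member sum in BMDM and Cd81 48.0% to 57.6% in BSM. The FPKM of the 10 members summed to 51.7, 97.5 and 65.1 in BMDM and to 199.7, 234.6 and 204.0 in BSM. Without Cd81 the sums were 51.3, 87.4 and 63.5 in BMDM and 80.8, 96.4 and 92.4 in BSM, which overlapped.

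**Figure D2:**
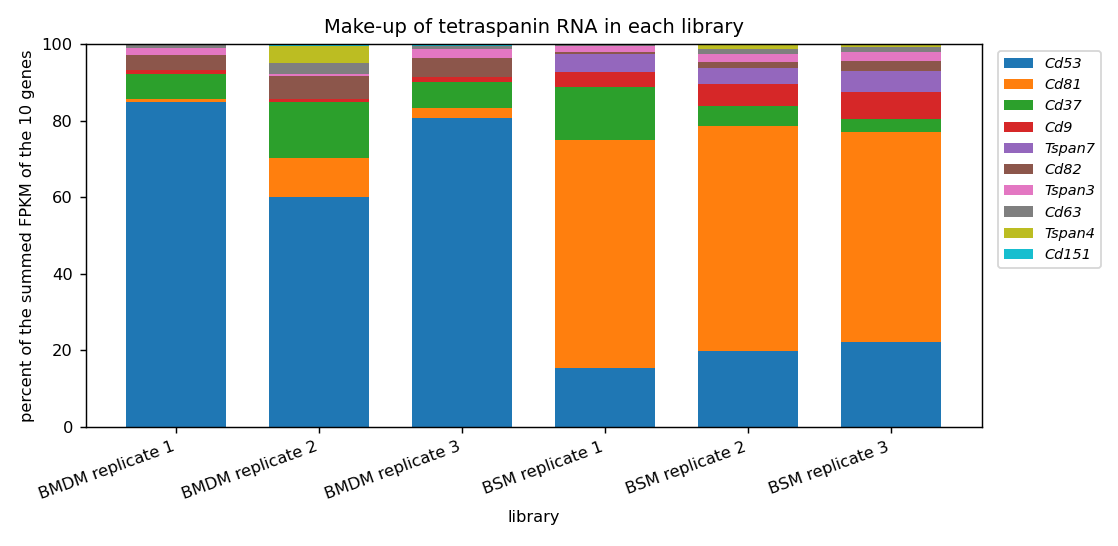
Share of each gene in the summed FPKM of the 10 tetraspanins (vertical axis, percent) in each of the 6 libraries (horizontal axis). Cd53 (blue) takes 59.9% to 84.9% of the BMDM bars, and Cd81 (orange) takes 54.7% to 59.5% of the BSM bars.

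Cd37 (chr7:52489002-52494485), the other leukocyte member, had an FPKM of 3.34, 14.2 and 4.49 in BMDM and of 27.7, 12.1 and 7.30 in BSM. BMDM replicate 2 and BSM replicate 1 were each well above the other libraries of their cell type, and the groups overlapped. The log2 difference was -1.03 (SE 0.58, 95% interval -2.38 to 0.32, limma adjusted p = 0.164). It was called higher in BSM with quantile normalization (-1.78, adjusted p = 0.0344), upper quartile scaling (-1.80, adjusted p = 0.0428) and scaling to the same sum (-2.22, adjusted p = 0.0195), all by limma, where 19.3%, 16.5% and 24.9% of all tested genes were called higher in BSM. By ALEXA-Seq as deposited, the difference with all libraries was -1.01 (limma adjusted p = 0.181). It was called there with quantile normalization of all libraries, at -1.80 (limma adjusted p = 0.0295). Without BMDM replicate 2 it was called as deposited, at -1.69 (limma adjusted p = 0.00949).

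Cd63 (chr10:128345975-128349872), the endosomal member, measured 0.397, 2.83 and 0.426 FPKM in BMDM and 0.777, 3.16 and 3.10 FPKM in BSM. BMDM replicate 2 lay close to BSM replicates 2 and 3, and BSM replicate 1 lay near the remaining BMDM libraries. The log2 difference was -0.66 (SE 0.51, 95% interval -1.85 to 0.53, limma adjusted p = 0.300), and it was called with quantile normalization (-1.47, limma adjusted p = 0.0145). By ALEXA-Seq the difference was -1.45 (SE 0.91, limma adjusted p = 0.216), and -2.50 (limma adjusted p = 0.0200) without BMDM replicate 2. Its FPKM was low beside its ALEXA-Seq values, which were 17.7, 156.4 and 15.7 in BMDM and 51.8, 138.0 and 136.7 in BSM. The mean ALEXA-Seq value was 48.4 times the mean FPKM for Cd63, above 98.8% of the 5695 tested genes that were matched by symbol, whose median was 13.1. A processed copy, Cd63-ps, matched 73.2% of the longest Cd63 transcript of GENCODE M21 at 95% identity or more. The FPKM of Cd63 is therefore uncertain, and the part of the copy was not tested.

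Cd82 (chr2:93259268-93303297), known as a suppressor of metastasis, measured 2.02, 5.74 and 3.35 FPKM in BMDM and 0.968, 4.09 and 5.66 FPKM in BSM. The groups overlapped throughout, with a log2 difference of 0.14 (SE 0.50, 95% interval -1.02 to 1.29, limma adjusted p = 0.835) that was below 0 under each of the other 3 scalings and by ALEXA-Seq (-0.02). Tspan4 (chr7:148661139-148679326), known from migrasomes, measured 0.0279, 4.33 and 0.0866 FPKM in BMDM and 6.85e-06, 2.37 and 0.909 FPKM in BSM. Its spread within each cell type was larger than the difference between them, which was -0.04 on the log2 scale (SE 0.72, 95% interval -1.71 to 1.64, limma adjusted p = 0.969). Its ALEXA-Seq values, 0.540, 2.96 and 1.04 in BMDM and 0, 3.03 and 2.40 in BSM, were only 1.29 times its FPKM by the means, less than for all but 0.896% of genes, and 19.9% of its transcript matched one of Chid1. Cd151 (chr7:148653292-148657367), a partner of laminin-binding integrins, stayed under the minimum at 0.191, 0.408 and 0.337 FPKM in BMDM and 0.242, 0.564 and 0.415 FPKM in BSM, and was not tested.

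**Figure D3:**
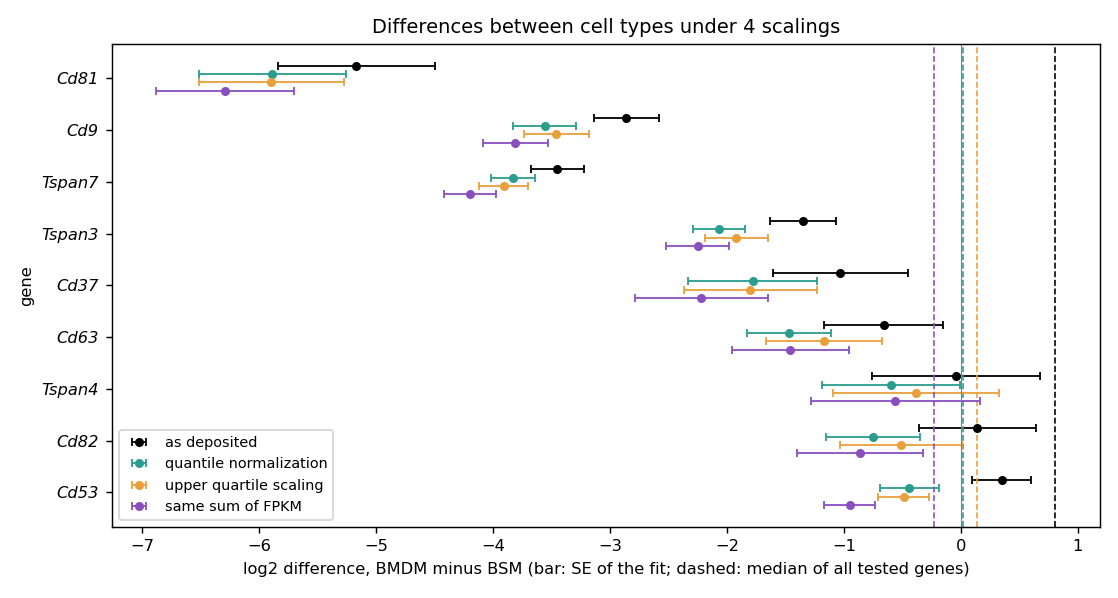
Log2 difference between BMDM and BSM (horizontal axis, BMDM minus BSM, with the SE of the fit) of the 9 tested tetraspanins (vertical axis) with the FPKM as deposited and under 3 other scalings, with dashed lines at the median of the 6364 tested genes. Cd81, Cd9, Tspan7 and Tspan3 stay left of 0 under every scaling shown, whereas Cd53 and Cd82 lie right of 0 only as deposited.

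Ordered by mean FPKM in BSM, the members ran from Cd81 and Cd53 through Cd37, Cd9, Tspan7, Tspan3, Cd82, Cd63 and Tspan4 to Cd151. Cd81 lay apart from Cd53, Cd53 from Cd37 and Tspan7 from Tspan3, and the libraries of the other neighbours in this order overlapped. In BMDM only Cd53 stood apart at the top, the ranges from Cd37 down to Cd9 overlapped from each gene to the next, and Cd151 and Tspan7 lay below. Among the tested genes of the same library, Cd81 stood at the 99.0 to 99.2 percentile of FPKM in BSM and at the 4.7, 66.1 and 11.6 percentile in BMDM replicates 1, 2 and 3. Cd53 stood at the 94.2 to 97.2 percentile in every library.

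BMDM replicate 2 stood apart for several members. It was the highest BMDM library for 8 of the 10 members, Tspan3 and Tspan7 excepted, and for 50.5% of tested genes. Over the mean of BMDM replicates 1 and 3 it was 10.1-fold for Cd81, 6.87-fold for Cd63, 3.63-fold for Cd37 and 2.14-fold for Cd82, and for Tspan4 75.6-fold by FPKM but 3.75-fold by ALEXA-Seq, beside a median of 1.12-fold for all tested genes. In the same library 10 granulocyte markers, led by Mpo, summed to 363.9 FPKM, against 63.2 and 105.2 in BMDM replicates 1 and 3. Likewise 6 erythroid markers summed to 38.8 FPKM against 6.81 and 6.92, and 10 lymphocyte markers, led by Nkg7, to 8.95 FPKM against 0.690 and 2.01. In BSM these sums were at most 0.116, 0.171 and 0.531 FPKM. By the quality measures of the study, BMDM replicate 2 also came from the fewest sorted cells and had the lowest share of reads mapped. Its RNA concentration was the lowest of the BMDM libraries. Within the granulocyte list, Mmp8 was nearly level, at 13.9, 14.7 and 14.5 FPKM in BMDM replicates 1 to 3, while the other markers were clearly highest in replicate 2. Whether granulocytes, erythroid cells or lymphocytes were present was not tested. The part of such cells, of the low input or of the mapping in the tetraspanin values of BMDM replicate 2 was not tested either, and they cannot be told apart here.

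The 7 megakaryocyte and platelet markers, cells rich in Cd9, summed to 2.52, 3.59 and 9.77 FPKM in BMDM and to 0.631 to 2.64 FPKM in BSM, while Cd9 in BMDM was 0.620 to 0.796 FPKM. The sum of the endothelial list was 6.28 to 8.51 in BMDM, mostly Slc2a1, Pecam1 and Flt1, and 2.22 to 4.27 in BSM. That of the oligodendrocyte list was 7.06 to 12.8 in BMDM, mostly Mbp, and 1.78 to 2.13 in BSM. The perivascular macrophage list summed to 113.2 to 159.3 FPKM in BMDM, nearly all F13a1, which monocytes also express, and to 2.67 to 5.83 FPKM in BSM. Some members of these lists went the other way from the sums. Kdr was at most 0.0437 FPKM in BMDM and 0.114 to 0.268 in BSM, and Mag at most 0.0361 and 0.0531 to 0.114. Stab1 was at most 0.00695 FPKM in BMDM and 0.588 to 1.00 in BSM, and Lyve1 at most 0.0117 and 0 to 1.87. The part of such cells in the tetraspanin values was not tested. Progenitor markers summed to 7.58 to 12.8 FPKM in BMDM and 4.98 to 12.3 FPKM in BSM, but their members went opposite ways, with Cd34 at 0.445 to 0.922 FPKM in BMDM and 4.72 to 11.3 FPKM in BSM, and Cd93 at 4.97 to 8.53 FPKM in BMDM and at most 0.0295 FPKM in BSM.

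Of the 21 other tetraspanin genes, 7 reached the FPKM minimum. Tspan13, Tspan18 and Upk1b were called higher in BSM, none was called higher in BMDM (nor by FPKM was any at an unadjusted limma p under 0.05), and Tspan5, Tspan14, Tspan17 and Tspan31 were not called. The shares of all tested genes were 9.22% called higher in BSM and 45.3% called higher in BMDM. Tspan18, known from endothelial cells, was listed at 0.00715, 0 and 0.0258 FPKM in BMDM and at 4.91, 2.00 and 1.76 FPKM in BSM (log2 difference -1.86, SE 0.37, limma adjusted p = 0.00445). Upk1b, a uroplakin of the bladder lining, was listed at 0, 0 and 0.0200 FPKM in BMDM and at 1.13, 3.76 and 3.03 FPKM in BSM (log2 difference -1.77, SE 0.38, limma adjusted p = 0.00579). By ALEXA-Seq, Tspan18 was well above 0 in BMDM, at 17.8, 27.9 and 13.9 against 122.6, 76.0 and 58.6 in BSM (log2 difference -2.04, SE 0.42, limma adjusted p = 0.00728), whereas Upk1b was at 0, 0 and 0.258 in BMDM and at 27.3, 97.4 and 68.5 in BSM. The tables thus differed on the level of Tspan18 in BMDM but not on which cell type was higher. Tspan31 was 5.67, 7.07 and 6.14 FPKM in BMDM and 2.63, 8.45 and 6.88 FPKM in BSM, with groups that overlapped (log2 difference 0.17, SE 0.37, limma adjusted p = 0.721, and -0.61 with quantile normalization). Tspan13 was 1.03, 0.718 and 1.47 FPKM in BMDM and 4.28, 2.82 and 4.25 FPKM in BSM (log2 difference -1.21, SE 0.27, limma adjusted p = 0.00762).

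Tspan5, Tspan14 and Tspan17 belong to the TspanC8 group, whose members carry the protease ADAM10 to the cell surface. Tspan5 measured 9.97, 9.73 and 7.95 FPKM in BMDM and 16.7, 4.52 and 1.39 FPKM in BSM, and Tspan17 measured 2.01, 5.44 and 3.66 FPKM in BMDM and 4.44, 0.106 and 0.263 FPKM in BSM. For both, BSM replicate 1 lay above the other BSM libraries and closed the gap to BMDM. In that library 11237 genes had an FPKM above 0, against 16693 and 16977 in BSM replicates 2 and 3. In the quality measures of the study, its RNA had the lowest concentration of all libraries and an integrity number far below that of every other library. A further integrity score was not available for it. The study's text describes the RNA as good, but the range of integrity numbers given there leaves this library out. Among the members, it was the lowest BSM library by FPKM for all but Cd81 and Cd37, and for Cd37 it was the highest. The part of RNA quality in the values of BSM replicate 1 was not tested. Without that library both were called higher in BMDM, Tspan5 at 1.49 (SE 0.36, limma adjusted p = 0.0124) and Tspan17 at 1.92 (SE 0.34, limma adjusted p = 0.00340), against 0.72 (limma adjusted p = 0.360) and 1.19 (limma adjusted p = 0.135) with all libraries. With scaling to the same sum and all libraries, the difference of Tspan5 was -0.39 (limma adjusted p = 0.694). By ALEXA-Seq with all libraries, the log2 difference of Tspan17 was 2.69 (SE 1.00, limma adjusted p = 0.0618), which passed 0.05 before adjustment and not after it. Tspan14 measured 7.34, 9.32 and 8.62 FPKM in BMDM and 10.9, 11.9 and 11.1 FPKM in BSM. It was not called as deposited (-0.39, SE 0.22, limma adjusted p = 0.158) and was called higher in BSM with quantile normalization (-1.14, limma adjusted p = 0.00258). Adam10 itself was 10.8, 12.7 and 15.3 FPKM in BMDM and 21.3, 17.5 and 21.4 FPKM in BSM, with a log2 difference of -0.60 (limma adjusted p = 0.0582) as deposited and -1.37 (limma adjusted p = 0.00191) with quantile normalization.

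**Figure D4:**
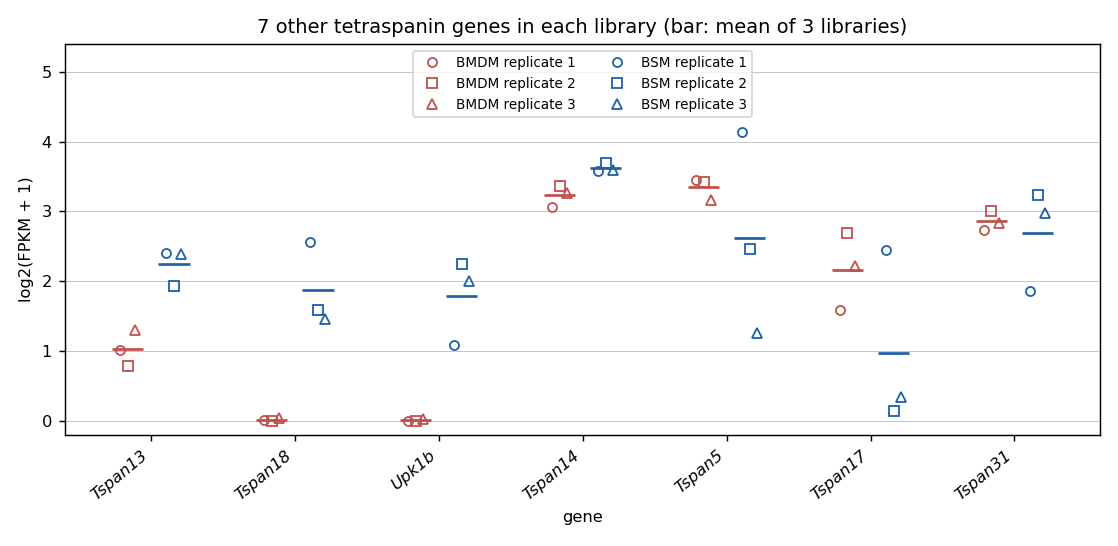
Levels of the 7 other tetraspanin genes that reached the FPKM minimum, on the log2(FPKM + 1) scale (vertical axis), for each gene (horizontal axis), with a symbol for each library and a bar at the mean of the 3 libraries. Tspan13, Tspan18 and Upk1b lie apart between the cell types, and BSM replicate 1 (blue circle) lies above the other BSM libraries for Tspan5 and Tspan17.

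Cd81 has a family neighbour, Tspan32, a haematopoietic member that lies 33.1 kb away on chromosome 7 of mm9. Tspan32 stayed under the minimum, at 1.39, 2.91 and 1.45 FPKM in BMDM and 0, 0.370 and 0.249 FPKM in BSM, so that the levels of the neighbours lay in opposite order between the cell types. With a minimum of 1 FPKM it was called higher in BMDM (log2 difference 1.25, limma adjusted p = 0.00780). In the same fit Tspan9, at 0.00586, 0.0282 and 0.0151 FPKM in BMDM and 0.350, 2.23 and 2.24 FPKM in BSM, was called higher in BSM (limma adjusted p = 0.0229). Cd151 and Tspan4 lie 3.77 kb apart, and Cd82 and Tspan18 lie 84.6 kb apart on chromosome 2, of which Tspan18 was called and Cd82 was not.

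Genes whose proteins bind tetraspanins or take part in their traffic numbered 51, with 50 in the table and 30 over the FPKM minimum. Of the 30, 17 were called higher in BMDM, 2 higher in BSM and 11 were not called. Beside these, 45.3% of all tested genes were called higher in BMDM and 9.22% higher in BSM. Their median log2 difference was 1.20, beside 0.81 for all tested genes. The split depended on the scaling, with 7 called higher in BMDM and 8 in BSM when every library had the same sum (15.2% and 24.9% of all genes).

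Among integrin chains, Itga6, the laminin-binding chain that pairs with CD151, was 1.31, 3.03 and 2.41 FPKM in BMDM and 22.2, 41.0 and 45.0 FPKM in BSM (log2 difference -3.49, SE 0.35, limma adjusted p = 0.000151). Itga4, a partner of CD81 and CD9 that binds VCAM-1, went the other way, at 46.6, 29.4 and 40.5 FPKM in BMDM and 1.20, 0.247 and 0.394 FPKM in BSM (log2 difference 4.65, SE 0.31, limma adjusted p = 2.26e-05). Itgal and Itgb2, the chains of LFA-1, were also called higher in BMDM, at 3.44 and 1.54 on the log2 scale. Itgb1 was not called (0.80, SE 0.39, limma adjusted p = 0.120), and its difference was 0.02, -0.03 and -0.47 under the other scalings, in the order given for Cd53. All 4 calls held with quantile normalization, and that of Itgb2 was lost with scaling to the same sum (0.24, limma adjusted p = 0.302).

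Of other web partners, Cd44, Cd47, Cd74, Dpp4 and Fcer1g were called higher in BMDM. The call of Fcer1g was lost with scaling to the same sum (0.62, limma adjusted p = 0.153, against 1.93 as deposited). Cd44, the hyaluronan receptor, was 43.2, 39.0 and 43.3 FPKM in BMDM and 0.269, 0.253 and 0.317 FPKM in BSM. Prkca, the kinase PKC alpha that tetraspanins link to integrins, was called higher in BSM, at 0.188, 0.0412 and 0.133 FPKM in BMDM and 8.77, 9.53 and 7.93 FPKM in BSM (log2 difference -3.12, SE 0.23, limma adjusted p = 3.57e-05). Prkcb was not called (0.38, limma adjusted p = 0.231), and its difference turned to -0.36, -0.31 and -0.69 with quantile normalization, upper quartile scaling and scaling to the same sum. All 7 immunoglobulin superfamily partners, which include the CD9 and CD81 partners Igsf8 and Ptgfrn, stayed under the FPKM minimum, with Igsf8 at 1.98 FPKM in BMDM replicate 2 as the highest value of those 2.

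Genes of exosome formation and endosomal sorting were called higher in BMDM for 8 of 13 tested (of 17 listed), beside 45.3% of all tested genes, and higher in BSM for none (nor for any at an unadjusted limma p under 0.05), with a median log2 difference of 1.14 beside 0.81 for all tested genes. They were Sdcbp (syntenin), Pdcd6ip (ALIX), Chmp4b, Rab27a, Rab7, Ap3b1, Ap3d1 and Lamp1. By ALEXA-Seq 7 were called, as Ap3d1 was not (limma adjusted p = 0.0509), beside 37.1% of all genes tested there. Rab27a, which docks exosome-bearing endosomes at the membrane, was 7.86, 9.41 and 10.8 FPKM in BMDM and 3.08, 2.03 and 1.53 FPKM in BSM (log2 difference 1.71, SE 0.27, limma adjusted p = 0.00138). With quantile normalization 4 of the 13 tested were called higher in BMDM, namely Chmp4b, Rab27a, Rab7 and Lamp1, beside 21.7% of all tested genes. With scaling to the same sum only Rab7 was called higher in BMDM, while Lamp2, Stam and Tsg101 were called higher in BSM. Zdhhc3, a palmitoyl transferase that acts on tetraspanins, was called higher in BMDM as deposited (log2 difference 1.59, limma adjusted p = 0.0206) but not with quantile normalization (0.77, limma adjusted p = 0.121).

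Over the 6 libraries, the tested genes with values most like those of Cd81 were Lgmn (legumain, an endosomal protease), C3ar1 (the C3a receptor) and St3gal6 (a sialyltransferase). Likeness was the root mean square difference of log2(FPKM + 1), at 0.75, 0.89 and 0.94. For Cd53 they were Sat1, Ctsh and Ogt, at 0.12, 0.17 and 0.19. Members were left out of this ranking, which covered 6355 genes.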

How the data were processed

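RNA-Seq libraries of 3 BMDM and 3 BSM sets were analysed. According to the submitters' processing notes, CASAVA 1.7.0, TopHat 1.3.1, Bowtie 0.12.7 and Cufflinks 1.0.3 were used, with the mouse build mm9. The authors deposited FPKM for each gene, and ALEXA-Seq values of those libraries, a linear signal whose normalization is not given in the sources used here. Neither table holds read numbers, so the depth behind a value is unknown. Groups and replicate numbers were taken from the labels, and 0 columns were left unassigned. Columns of the authors' own comparisons were not used.

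FPKM were tested with limma 3.58.1 in R 4.3.3 (mean-variance trend) on log2(FPKM + 1). Tested were 6364 genes that reached 3 FPKM in any library, with Benjamini-Hochberg adjustment and a threshold of 0.05. As many genes, taken by their highest value, were tested by ALEXA-Seq. An exact permutation test of 3 against 3 libraries gives a two-sided p of 0.1 at the smallest. The fit was tested on simulated data with 200 changed genes. Folds are ratios of mean FPKM. Copies were found with blastn 2.17.0 (at least 100 bases at 95% identity) in GENCODE M21. Python 3.11.15 and pandas 2.3.3 were used for tables and matplotlib 3.10.9 for plots. Positions of genes are on mm9, counted from 1, and promoters are from RefSeq on GRCm38.p6. Protein sequences were not analysed here.

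The members, partner lists and marker lists were chosen with earlier results of these data known. Named genes were every member, other tetraspanins and partners over the FPKM minimum, and, for the members with the largest log2(FPKM + 1) difference in each direction, the 3 most similar genes. Tspan32, Tspan9, Igsf8, Ptgfrn and the leading markers were named after their values were seen. Some genes are not reported here. The alternatives were an FPKM minimum of 1 or none, a pseudocount of 0.1, 3 other scalings, moderation without the trend, library quality weights, a replicate block, leaving out each library in turn and leaving out both male libraries.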

Additional observations from a re-analysis of the deposited data

How the results depend on the processing

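Cd81, Cd9, Tspan7 and Tspan3 were called higher in BSM in all 17 fits of FPKM and all 12 of ALEXA-Seq values. With library quality weights 7 members were called higher in BSM, with Cd37, Cd63 and Tspan4 in addition, against 4 with equal weights. The direction of Cd53 turned with quantile normalization (-0.44 for FPKM, -0.54 for ALEXA-Seq), upper quartile scaling (-0.49) and scaling to the same sum (-0.95), and its ALEXA-Seq difference ran from -0.03 to 0.24 when each library was left out in turn. For Cd82 the FPKM difference was -0.39 with quality weights, -0.75 with quantile normalization, -0.51 with upper quartile scaling, -0.86 with the same sum and -0.11 without both male libraries, and it ran from -0.39 to 0.49 when each library was left out (-0.54 to 0.37 by ALEXA-Seq). Tspan4 ran from -0.81 to 0.39. The cause was not tested. Other tetraspanins called higher in BMDM, 0 as deposited (limma adjusted p), numbered 1 with an FPKM minimum of 1, 2 with no minimum, 2 with quality weights, 2 without both male libraries and 0 to 2 when each library was left out, the 2 being Tspan5 and Tspan17 without BSM replicate 1. As deposited, 45.3% of all tested genes were called higher in BMDM. The shares in that direction under these settings are not given here, so the counts are not read as a result about the family. Partner genes called higher in BSM, 2 as deposited, numbered 4 with quality weights, 5 with quantile normalization, 5 with upper quartile scaling and 8 with the same sum, and those called higher in BMDM fell from 17 to 7 with the same sum. Of all tested genes, 587 were called higher in BSM, and 881, 1227, 1051 and 1585 under these 4 settings, while 2883 were called higher in BMDM, and 1378, 1379 and 968 under the 3 scalings. Ranked by median FPKM, 3 of 10 members kept their rank in BMDM. Ranked by ALEXA-Seq values, 3 kept it in BMDM and 2 in BSM.

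Replicate numbers are shared by the cell types, but libraries with the same number did not deviate together in all pairs (correlations of deviations -0.0195, -0.00836 and 0.134 for numbers 1, 2 and 3), and not every library correlated best with its own number. With the replicate block, 4 members, 3 other tetraspanins and 2 partners were called higher in BSM and 17 partners in BMDM, as without it, and of all genes 566 were called higher in BSM and 2905 in BMDM. Depth per gene is unknown, so low values such as those of Cd151 and Tspan4 carry an error that is not given.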
